A study of Mus musculus with 6 samples.

Results

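Expression of 40 genes that encode chromatin regulators, most of them known from human neurodevelopmental disorders, was examined in the brains of mice fed a diet with PLDP, a product of porcine liver broken down by protease. The genes were chosen by name from 7 classes, namely the methyltransferase family of lysine 4 of histone H3, other histone methyltransferases, histone demethylases, CHD remodelers, SWI/SNF and other remodelers, DNA methylation enzymes, and corepressors and other regulators. Symbols were matched through the mouse Ensembl identifiers, which gave 39 genes out of 60354 features, and 1 gene was not analysed here. All 39 had enough reads to be tested, among 18580 features tested. The lowest count of any of them was 121 reads, for Srcap in a PLDP mouse.

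RNA-seq was performed on whole brains of 3 mice on the control diet (numbered 2, 5 and 10) and 3 on the PLDP diet (numbered 17, 22 and 26), out of 13 fed each diet. All were male C57BL/6NCrSlc mice and 16 weeks old at the start. For 16 weeks PLDP mice ate an AIN-93M diet, modified to hold 20% PLDP, and control mice an AIN-93M diet modified to match its calories, and both groups then went through the same behavioral tests, during which no PLDP was given, before RNA was extracted. Expression is given as CPM, read counts scaled to library size with TMM factors. The diets were compared by the quasi-likelihood test of edgeR, in which genes with an unadjusted p below 0.05 were called, and p-values adjusted by the Benjamini-Hochberg method over all 18580 features are given beside the calls. Because whole brains were used, more cells of a type and more RNA per cell cannot be told apart.

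Libraries held between 18797061 and 23938729 counts. PLDP mouse 17 stood apart from the other mice. Over the features tested, the mean chi-square between its counts and those of each other mouse was 4.46 to 5.35, against 2.35 to 4.49 for the other 10 pairs of mice. Fold changes of the genes whose call or sign depended on this mouse are also given without it. Markers of neurons, astrocytes, oligodendrocytes, their precursors, microglia, endothelium, choroid plexus, blood, meninges, cerebellar granule cells and projection neurons, with 5 nuclear-retained RNAs, made up 53 genes, and each had reads in every mouse, with a lowest level of 2.26 CPM.

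Chromatin regulators set which genes a cell can use. Methyltransferases of the KMT2 and SETD1 type mark promoters and enhancers on histone H3, and KDM5 enzymes remove that mark. CHD and SWI/SNF proteins are motors that move or evict nucleosomes with energy from ATP, TET enzymes and Dnmt3a change the methylation of DNA, and class IIa histone deacetylases such as Hdac4 and Hdac5 shuttle between cytoplasm and nucleus in response to neuronal activity. Inherited or new loss of 1 copy of many of these genes in all cells of the body is known to cause intellectual disability or autism in humans, for example KMT2D in Kabuki syndrome, CHD7 in CHARGE syndrome and CHD8 in a form of autism.

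The genes shared features that their choice did not use. They were long, with a median exon length (all exons merged) of 13971 bases and a range from 5489 bases for Ehmt2 to 22890 for Auts2, where the 14562 protein-coding genes tested had a median of 4492 bases. The longest coding sequence was 5856 bases at the median, against 1425 for the protein-coding genes, and reached 16764 bases in Kmt2d. Their median GC content was 51.9%, close to the 49.8% of the protein-coding genes. Their median level was 102 CPM, above that of 84.8% of the protein-coding genes tested. CPM is not divided by gene length, so for genes this long that rank does not compare numbers of transcripts.

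Promoter sequences were taken from RefSeq (build GRCm38.p6) for 28 of the 39 genes, as 35 windows of 250 bases before a transcription start. CG dinucleotides were frequent in these windows, with a median of 23 per window against 14 in the 14550 windows of protein-coding genes tested and 6 in all 32851 windows. The GC box GGGCGG, read on both strands, was present in 88.6% of the windows, against 55.3% in the windows of protein-coding genes tested and 32.7% in all windows. The E-box CACGTG was found in 11.4% of the windows (4 windows of 3 genes), against 7.81% in the windows of protein-coding genes tested and 6.02% in all windows. The half-site TGACG of the cyclic AMP response element, searched on both strands, was found in 20.0% of the windows (7 windows of 5 genes). Its share was 24.7% in the windows of protein-coding genes tested and 17.8% in all windows. Some genes have more than 1 window, so these few windows do not order the shares. A match is a string of letters and was not tested for binding. The windows of Chd8, Hdac5 and Kdm5b are shown because these are the called genes whose values did not overlap between the diets, with GC boxes and TGACG half-sites in capitals on either strand.
Chd8, chr14:52257761-52258010, minus strand: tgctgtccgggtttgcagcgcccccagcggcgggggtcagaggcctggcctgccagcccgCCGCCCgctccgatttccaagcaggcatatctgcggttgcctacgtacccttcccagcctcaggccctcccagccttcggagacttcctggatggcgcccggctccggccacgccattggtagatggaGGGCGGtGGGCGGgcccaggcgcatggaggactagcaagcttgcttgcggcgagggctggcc
Hdac5, chr11:102230173-102230422, minus strand: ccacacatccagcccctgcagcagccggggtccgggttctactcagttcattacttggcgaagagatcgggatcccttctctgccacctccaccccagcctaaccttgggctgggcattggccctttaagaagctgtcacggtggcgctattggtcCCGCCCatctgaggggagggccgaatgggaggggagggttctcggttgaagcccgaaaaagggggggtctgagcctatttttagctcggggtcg
Kdm5b, chr1:134559928-134560177, plus strand: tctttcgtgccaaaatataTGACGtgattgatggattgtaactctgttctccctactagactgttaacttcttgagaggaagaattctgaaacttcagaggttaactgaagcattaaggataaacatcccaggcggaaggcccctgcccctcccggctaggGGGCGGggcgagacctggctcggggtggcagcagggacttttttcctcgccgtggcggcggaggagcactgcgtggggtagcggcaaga
The window of Chd8 held 3 GC boxes and 20 CG dinucleotides. Those of Hdac5 and Kdm5b held 1 GC box each, with 12 and 13 CG dinucleotides, and the window of Kdm5b also held 1 TGACG half-site.

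Levels per length, as CPM per kb of merged exons, covered a wide range. Chd3, the ATPase of a nucleosome remodeling and deacetylase complex, was the highest at 80.6 to 85.8 CPM per kb over the 6 mice. Next came Ehmt2, a methyltransferase of lysine 9 of histone H3, at 36.8 to 39.3, then Chd4 (28.5 to 31.1) and Hdac5 (28.1 to 31.4), whose ranges overlapped. At the other end were Tet2 (1.85 to 2.31), Tet1 (0.608 to 0.850) and Srcap (0.356 to 0.558), each below the one before it in every mouse. Between these ends most neighbors could not be ordered. Of the 38 pairs of neighbors in the order of mean level, 29 had overlapping ranges. The order also depends on the length used, because merged exons can be much longer than any 1 transcript. Smarca2 had 14269 bases of merged exons and a longest transcript of 5921, and Auts2 22890 and 7409. For Smarca4 the lengths were close, 6475 and 6376 bases.
Srcap, a remodeler that exchanges histone H2A variants, shares 61.7% of its exon bases with another annotated gene on its strand, and Setd1a shares 51.8%. Chd2 shares 18.4% in this way, and Hdac4 shares 22.4% with a gene on the opposite strand. How reads on shared bases were counted is not known, so the levels of these 4 genes are uncertain.

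**Figure D1:**
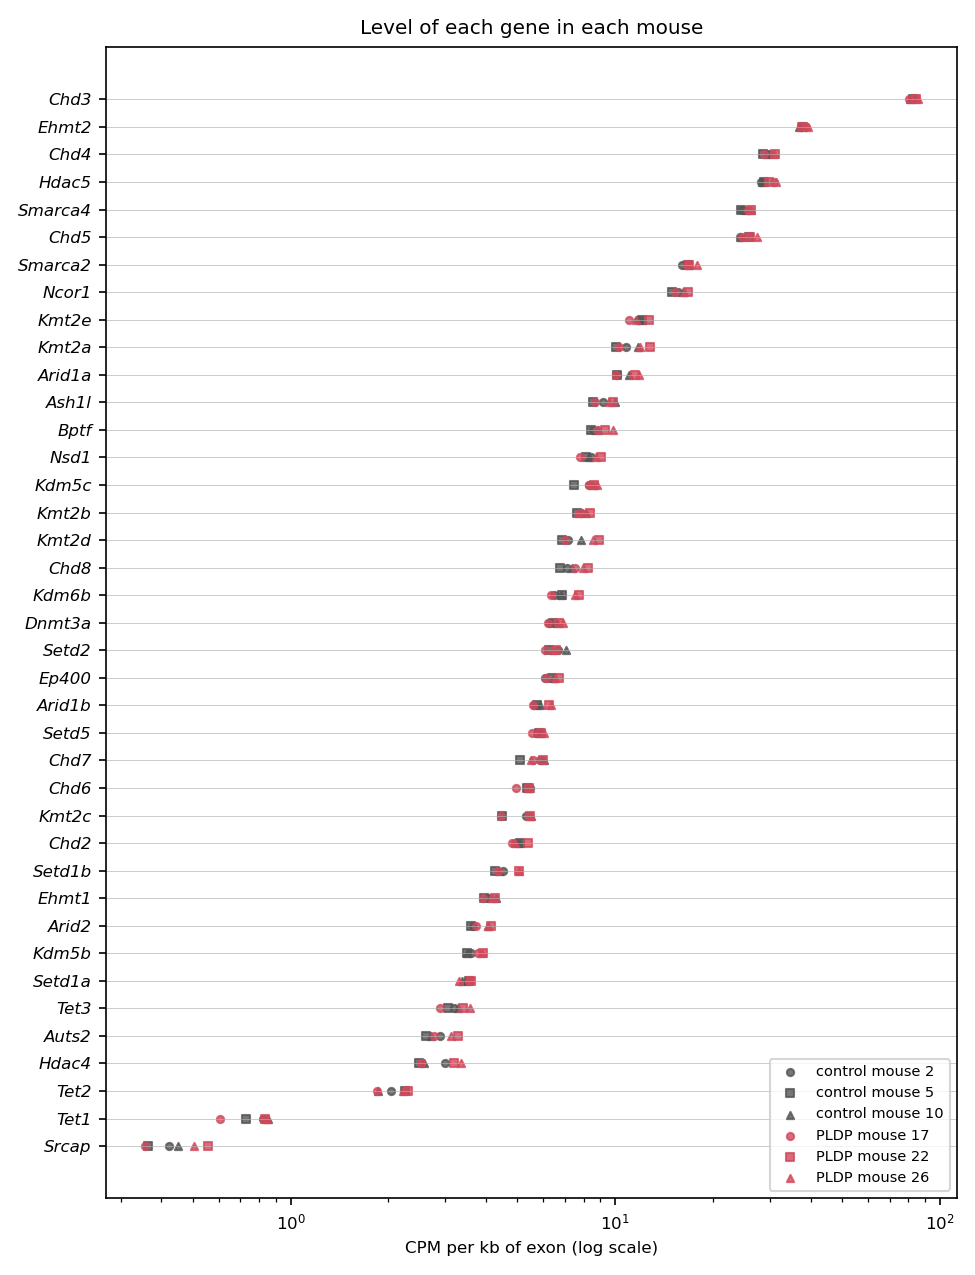
Level of each of the 39 genes in each of the 6 mice, as CPM per kb of merged exons on a log axis, with genes in order of mean level. Chd3 stands alone at 80.6 to 85.8, Tet1 and Srcap lie below 1, and most genes in between overlap with their neighbors.

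In the comparison of diets, 7 of the 39 genes were called higher in the PLDP mice, namely Chd8, Hdac5, Kdm5b, Auts2, Bptf, Kmt2d and Setd1b, and 0 were called lower. Over all features tested, 4.91% were called higher and 3.69% lower, or 8.6% in either direction, so the share of called genes among the chromatin regulators was 17.9% for higher and 0% for lower. The changes were small, between 0.11 and 0.16 on the log2 scale. After adjustment over all features 0 of the 39 passed 0.05 (edgeR), with a lowest adjusted p of 0.319, while 0.0323% of all features passed. DESeq2 also gave 0 genes after adjustment, where 0.129% of all features passed, and called 5 of the 39 higher (12.8%) against 3.04% of all features. The log2 fold change was above 0 for 35 of the 39 genes, against 49.8% of all features, and its median was 0.049 against -0.00062 over all features. All PLDP mice lay above all control mice for 4 genes (Chd8, Hdac5, Kdm5b and Smarca4), which is 10.3% and close to the 7.29% of all features, and below them for 0, where all features gave 6.9%.

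The number of called genes depended on the mice. Without PLDP mouse 17, 19 of the 39 were called higher, where 6.86% of all features were, and 0 lower. These were the 7 genes above together with Kmt2a, Nsd1, Kdm6b, Chd4, Chd5, Arid1a, Arid1b, Smarca4, Srcap, Tet3, Ncor1 and Hdac4. In that fit 5 genes passed an adjusted p of 0.05 (edgeR), Kmt2d, Auts2, Chd8, Hdac4 and Setd1b, where 0.966% of all features did. Without PLDP mouse 22 or PLDP mouse 26, 2 genes were called in each case, which is 5.13% against 4.20% and 3.91% of all features. Without control mouse 5, 3 genes were called, or 7.69% against 3.77% of all features. Chd8 stayed called whichever of the 6 mice was omitted. Hdac5 lost its call without PLDP mouse 26 and Kdm5b without PLDP mouse 22, and Auts2, Bptf, Kmt2d and Setd1b kept theirs in 2 of these 6 cases. The number of genes with a log2 fold change above 0, 35 with all mice, was 25 without PLDP mouse 22 and 31 to 37 without each other mouse, and 14 of the 39 genes took the other sign when at least 1 of the mice was omitted.

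**Figure D2:**
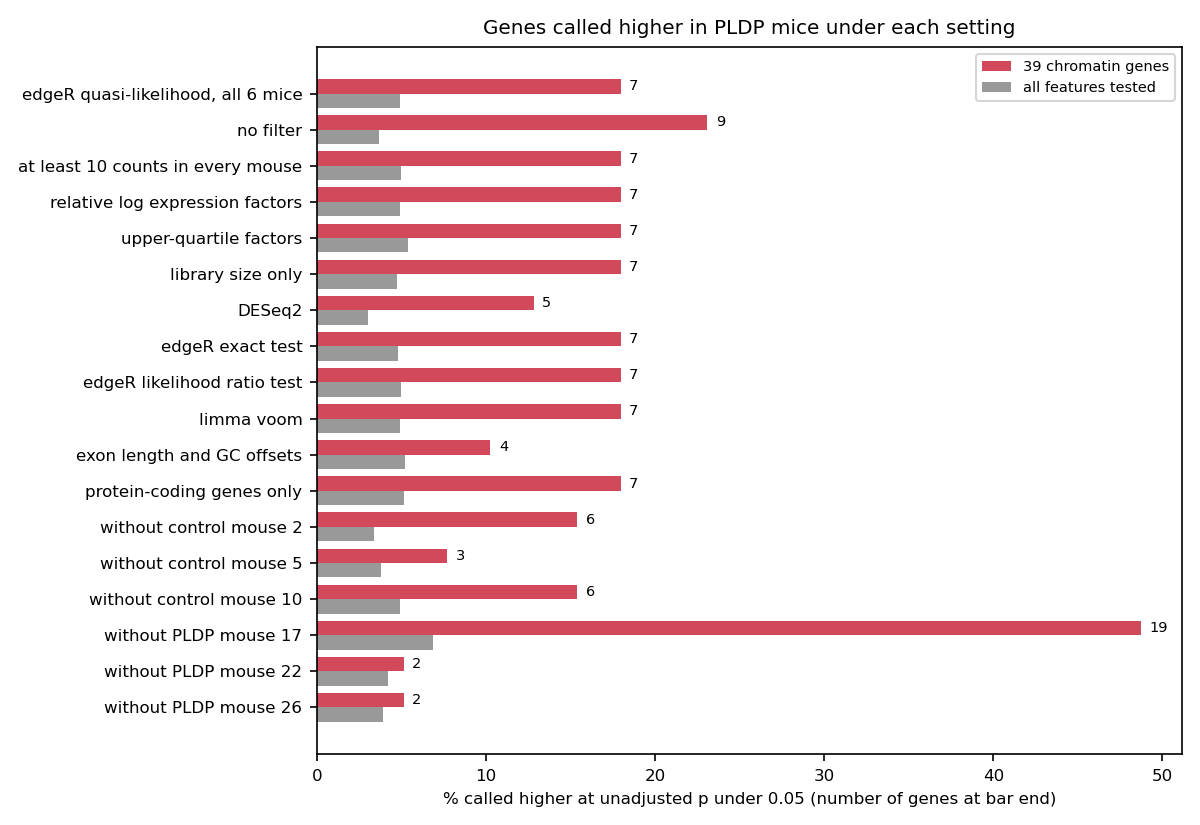
Share of the 39 genes (red) and of all features tested (grey) called higher in PLDP mice (unadjusted p below 0.05), in percent, under each setting, with the number of genes at the end of each red bar. With all mice 7 genes were called, against 19 without PLDP mouse 17 and 2 without PLDP mouse 22 or 26.

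**Figure D3:**
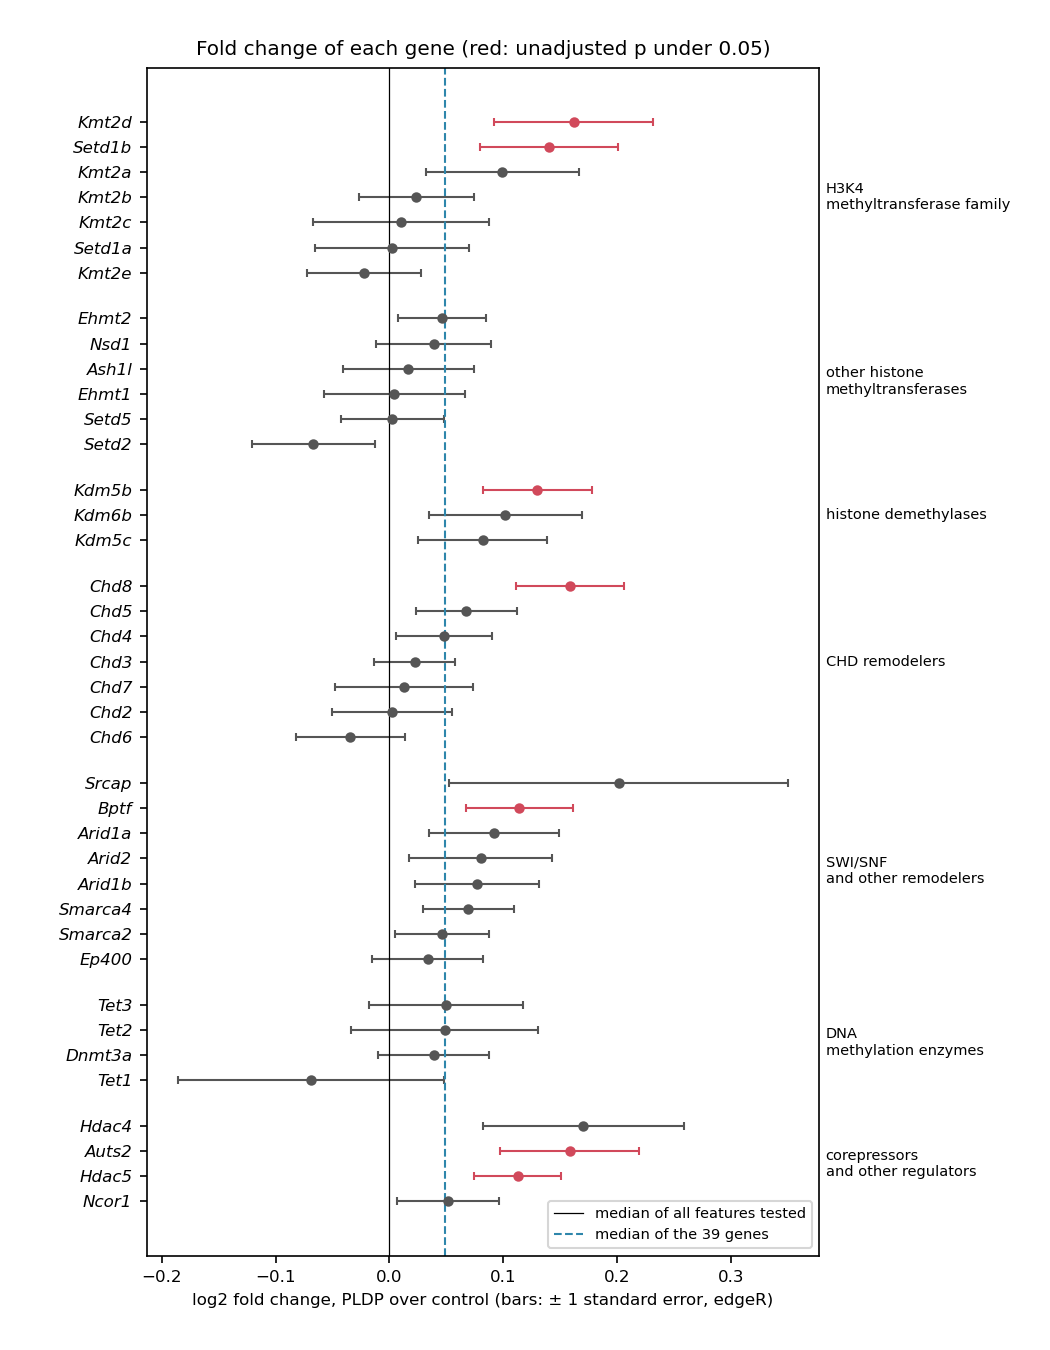
Log2 fold change of PLDP over control mice for each gene, grouped by class, with bars of 1 standard error from edgeR and red for an unadjusted p under 0.05. The 7 red genes lie between 0.11 and 0.16, the dashed line marks the median of the 39 genes (0.049), and 4 genes lie below 0.

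Among the 7 genes of the family that methylates lysine 4 of histone H3, Kmt2d and Setd1b were called higher and 0 lower, and 6 of the 7 had a log2 fold change above 0. Kmt2d (ENSMUSG00000048154, chr15:98831669-98871204), an enhancer methyltransferase, had 142.4, 137.0 and 156.4 CPM in control mice 2, 5 and 10 and 139.9, 177.7 and 169.7 CPM in PLDP mice 17, 22 and 26. PLDP mice 22 and 26 were above every control mouse, and PLDP mouse 17 lay among the controls. Mean levels of Kmt2d were 145.3 ± 10.0 and 162.4 ± 20.0 CPM (SD over 3 mice per diet), which gave a log2 fold change of 0.16 (edgeR adjusted p = 0.530, standard error 0.07). Without PLDP mouse 17 the log2 fold change of Kmt2d was 0.26 (edgeR adjusted p = 0.00988), and without PLDP mouse 22 it was 0.09 and was not called. Setd1b (ENSMUSG00000038384, chr5:123142193-123168629), the catalytic subunit of a promoter methyltransferase complex, showed the same layout, with 54.3, 51.4 and 53.0 CPM in the control mice and 52.6, 61.2 and 61.2 CPM in the PLDP mice. Its log2 fold change was 0.14 (edgeR adjusted p = 0.532, standard error 0.06). That of Setd1b was 0.21 without PLDP mouse 17 (edgeR adjusted p = 0.0475), and without PLDP mouse 22 or 26 it was 0.10 and was not called. Neither Kmt2d nor Setd1b was called by DESeq2 or under a correction for exon length and GC content.
Kmt2a, the founding member of the family, had 180.4, 167.5 and 196.6 CPM in the control mice and 171.1, 213.0 and 198.8 in the PLDP mice. Again PLDP mouse 17 was within the control range. Its log2 fold change of 0.10 did not pass the test (adjusted p = 0.727). It was 0.18 without PLDP mouse 17 and 0.16 without control mouse 10, where Kmt2a was called, and 0.03 without PLDP mouse 22. Kmt2a was also called with all mice and no filter on low counts. Kmt2e, which binds the methyl mark, had the highest mean level per length of the family (11.9 CPM per kb), in a range that overlapped that of Kmt2a. It had 122.8, 126.3 and 125.9 CPM in the control mice and 115.5, 132.5 and 121.1 CPM in the PLDP mice. The highest and the lowest value were both in PLDP mice, and the log2 fold change of Kmt2e was -0.02, with an interval of ± 2 standard errors from -0.12 to 0.08. This value was 0.02 without PLDP mouse 17. For Kmt2b, Kmt2c and Setd1a the log2 fold changes were between 0.0025 and 0.024. That of Kmt2c was 0.10 without PLDP mouse 17 and was not called, and that of Setd1a was -0.0078. The lowest values with 1 mouse left out were -0.076 for Kmt2c and -0.026 for Setd1a.

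None of the 6 other histone methyltransferases was called. Setd2, the methyltransferase of lysine 36 of histone H3 that travels with RNA polymerase, had the smallest p of this class (adjusted p = 0.778, edgeR). Its values were 71.5, 67.3 and 75.9 CPM in the control mice and 65.4, 70.4 and 69.0 CPM in the PLDP mice. The groups overlapped, and its log2 fold change was -0.07 (± 2 standard errors, -0.17 to 0.04), which leaving out 1 mouse moved between -0.11 (without control mouse 5) and -0.02 (without control mouse 10). Ehmt2, the highest of the class per length, had 205.3, 207.6 and 202.2 CPM against 213.1, 206.1 and 216.0, a log2 fold change of 0.05 (standard error 0.04). Its partner Ehmt1 and the remaining Setd5, Nsd1 and Ash1l had log2 fold changes between 0.0026 and 0.039. Leaving out PLDP mouse 17 gave 0.10 for Nsd1, which was then called. The lowest value of Nsd1 with 1 mouse left out was -0.0082.

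Of the 3 histone demethylases Kdm5b was called higher and all 3 had log2 fold changes above 0, with a class median of 0.10. Kdm5b (ENSMUSG00000042207, chr1:134560171-134635285), which removes methyl groups from lysine 4 of histone H3, had 59.4, 57.8 and 58.0 CPM in the control mice and 62.4, 65.0 and 64.3 CPM in the PLDP mice. Every PLDP mouse was above every control mouse, and PLDP mouse 17 was the lowest of its group. Mean levels of Kdm5b were 58.4 ± 0.83 and 63.9 ± 1.36 CPM (SD over 3 mice per diet), which gave a log2 fold change of 0.13 (edgeR adjusted p = 0.448, standard error 0.05). Kdm5c, its X-linked relative, had the highest mean level per length of the class (8.34 CPM per kb), in a range that overlapped that of Kdm6b. Kdm5c had 59.0, 53.1 and 60.6 CPM against 59.0, 61.3 and 62.5. Those groups overlapped, with a log2 fold change of 0.08 (adjusted p = 0.732), which was 0.03 without control mouse 5 and 0.12 without control mouse 10. Kdm6b, which removes methyl groups from lysine 27 and is inducible in many cells, ranged from 45.0 to 47.8 CPM in the control mice and from 44.2 to 53.8 CPM in the PLDP mice, a log2 fold change of 0.10. Leaving out PLDP mouse 17, its lowest value, gave 0.19 for Kdm6b, which was then called. The lowest log2 fold change of Kdm6b with 1 mouse left out was 0.04.

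Chd8 was the called member of the 7 CHD remodelers and had the smallest p of all 39 genes. It is known to bind many active promoters. It had 117.0, 112.1 and 121.9 CPM in control mice 2, 5 and 10 and 124.5, 135.9 and 131.2 CPM in PLDP mice 17, 22 and 26. There was no overlap, although PLDP mouse 17 was only just above control mouse 10. Mean levels of Chd8 were 117.0 ± 4.91 and 130.5 ± 5.76 CPM (SD over 3 mice per diet), which gave a log2 fold change of 0.16 (edgeR adjusted p = 0.319, standard error 0.05). Chd8 is ENSMUSG00000053754, chr14:52198151-52257780 in GRCm38, and 5.77% of its exon bases are also covered by a gene on the opposite strand.
The neuronal Chd5 had 231.9, 246.7 and 233.0 CPM in the control mice and 235.6, 249.3 and 261.1 in the PLDP mice, a log2 fold change of 0.07 (adjusted p = 0.715). Chd3, the most abundant gene of the 39, had 702.3, 696.8 and 685.0 CPM against 680.3, 712.0 and 724.2. Its groups overlapped, and its log2 fold change was 0.02 with an interval of ± 2 standard errors from -0.05 to 0.09. Leaving out 1 mouse moved it between 0.0020 (without PLDP mouse 26) and 0.05 (without PLDP mouse 17). For Chd4 the log2 fold change was 0.05, for Chd7 and Chd2 it was 0.01 and 0.0023, and for Chd6 it was -0.03. Leaving out PLDP mouse 17 gave 0.10 for Chd5 and 0.09 for Chd4, which were then called, and 0.01 for Chd6, which was not. The lowest values with 1 mouse left out were 0.03 for Chd5, 0.02 for Chd4 and -0.06 for Chd6.

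All 8 SWI/SNF and other remodelers had log2 fold changes above 0, with a median of 0.08, and 1 of them, Bptf, was called. Bptf (ENSMUSG00000040481, chr11:107033081-107132127), the large subunit of a remodeling complex of the ISWI type, reads the methyl mark of lysine 4. It had 120.1, 118.5 and 125.0 CPM in the control mice and 124.2, 131.3 and 138.2 CPM in the PLDP mice. PLDP mouse 17 fell just below control mouse 10, and the other PLDP mice lay above all controls. Its log2 fold change was 0.11 (edgeR adjusted p = 0.505, standard error 0.05). Without PLDP mouse 26 the log2 fold change of Bptf was 0.08 and was not called, and without PLDP mouse 17 it was 0.15. Smarca4, an ATPase of SWI/SNF and the highest of the class per length of merged exons (25.5 CPM per kb), separated the diets without passing the test. Its values were 159.1, 158.3 and 165.2 CPM in the control mice and 166.4, 169.7 and 170.2 CPM in the PLDP mice, a log2 fold change of 0.07 (edgeR adjusted p = 0.651, standard error 0.04). Without PLDP mouse 17 it was 0.08 and passed an unadjusted p of 0.05. The DNA-binding subunits Arid1a, Arid1b and Arid2 had log2 fold changes between 0.08 and 0.09, the other ATPase Smarca2 0.05 and Ep400 0.03. Leaving out PLDP mouse 17 gave 0.16 for Arid1a and 0.13 for Arid1b, which were then called, and 0.12 for Arid2, which was not. The lowest values with 1 mouse left out were 0.05 for Arid1a, 0.04 for Arid1b and 0.05 for Arid2. Srcap had the largest log2 fold change of the 39 genes, 0.20, but with a standard error of 0.15 and the lowest counts. Without PLDP mouse 17 it was 0.37 and was called, and without PLDP mouse 22 it was 0.05.

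None of the 4 DNA methylation enzymes was called. Dnmt3a, which adds methyl groups to DNA and is the class member with the smallest p and the highest level per length, had 103.9, 106.8 and 110.5 CPM in the control mice and 103.4, 111.4 and 115.2 CPM in the PLDP mice. Its groups overlapped, and the log2 fold change was 0.04 (± 2 standard errors, -0.06 to 0.14), and leaving out 1 mouse moved it between 0.0043 (without PLDP mouse 26) and 0.08 (without PLDP mouse 17), with no call for Dnmt3a. The TET enzymes, which oxidize the methyl group, had log2 fold changes of 0.05 for Tet3, 0.05 for Tet2 and -0.07 for Tet1. Tet1 had 9.39 CPM in PLDP mouse 17, the lowest of the 6 mice, and 11.3 to 13.1 CPM in the others. Without that mouse the log2 fold changes were 0.07 for Tet1, 0.14 for Tet2 and 0.14 for Tet3, and Tet3 was called. The lowest values with 1 mouse left out were -0.15 for Tet1, -0.021 for Tet2 and -0.011 for Tet3.

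Of the 4 corepressors and other regulators, Hdac5 and Auts2 were called higher and all had log2 fold changes above 0, with a median of 0.14. Hdac5 had 246.5, 251.6 and 249.4 CPM in the control mice and 271.4, 261.5 and 275.5 CPM in the PLDP mice. The groups were fully apart, and unlike most of the genes Hdac5 was not lowest in PLDP mouse 17 among the PLDP mice. Mean levels of Hdac5 were 249.2 ± 2.56 and 269.5 ± 7.19 CPM (SD over 3 mice per diet), which gave a log2 fold change of 0.11 (edgeR adjusted p = 0.399, standard error 0.04). Hdac5 is ENSMUSG00000008855, chr11:102194432-102230166 in GRCm38. Auts2 (ENSMUSG00000029673, chr5:131437333-132543344), a component of a Polycomb complex that activates genes in neurons, had 66.0, 60.0 and 62.1 CPM in the control mice and 63.5, 74.9 and 71.5 CPM in the PLDP mice. PLDP mouse 17 lay within the control range. The log2 fold change of Auts2 was 0.16 (edgeR adjusted p = 0.461, standard error 0.06), and under the correction for exon length and GC content it was 0.10 and was not called. It was 0.22 without PLDP mouse 17 (edgeR adjusted p = 0.0391), and 0.10 and not called without PLDP mouse 22. Hdac4, the close relative of Hdac5, had 47.2, 39.3 and 40.9 CPM against 40.0, 50.6 and 52.9, a log2 fold change of 0.17 (adjusted p = 0.621). Without PLDP mouse 17 that of Hdac4 was 0.28 (edgeR adjusted p = 0.0454), and without PLDP mouse 26 it was 0.09. It was 0.25 and called without control mouse 2. Hdac4 was also called with all mice and no filter on low counts. The nuclear receptor corepressor Ncor1 had a log2 fold change of 0.05, and 0.09 without PLDP mouse 17, where it was called. The lowest value of Ncor1 with 1 mouse left out was 0.02.

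**Figure D4:**
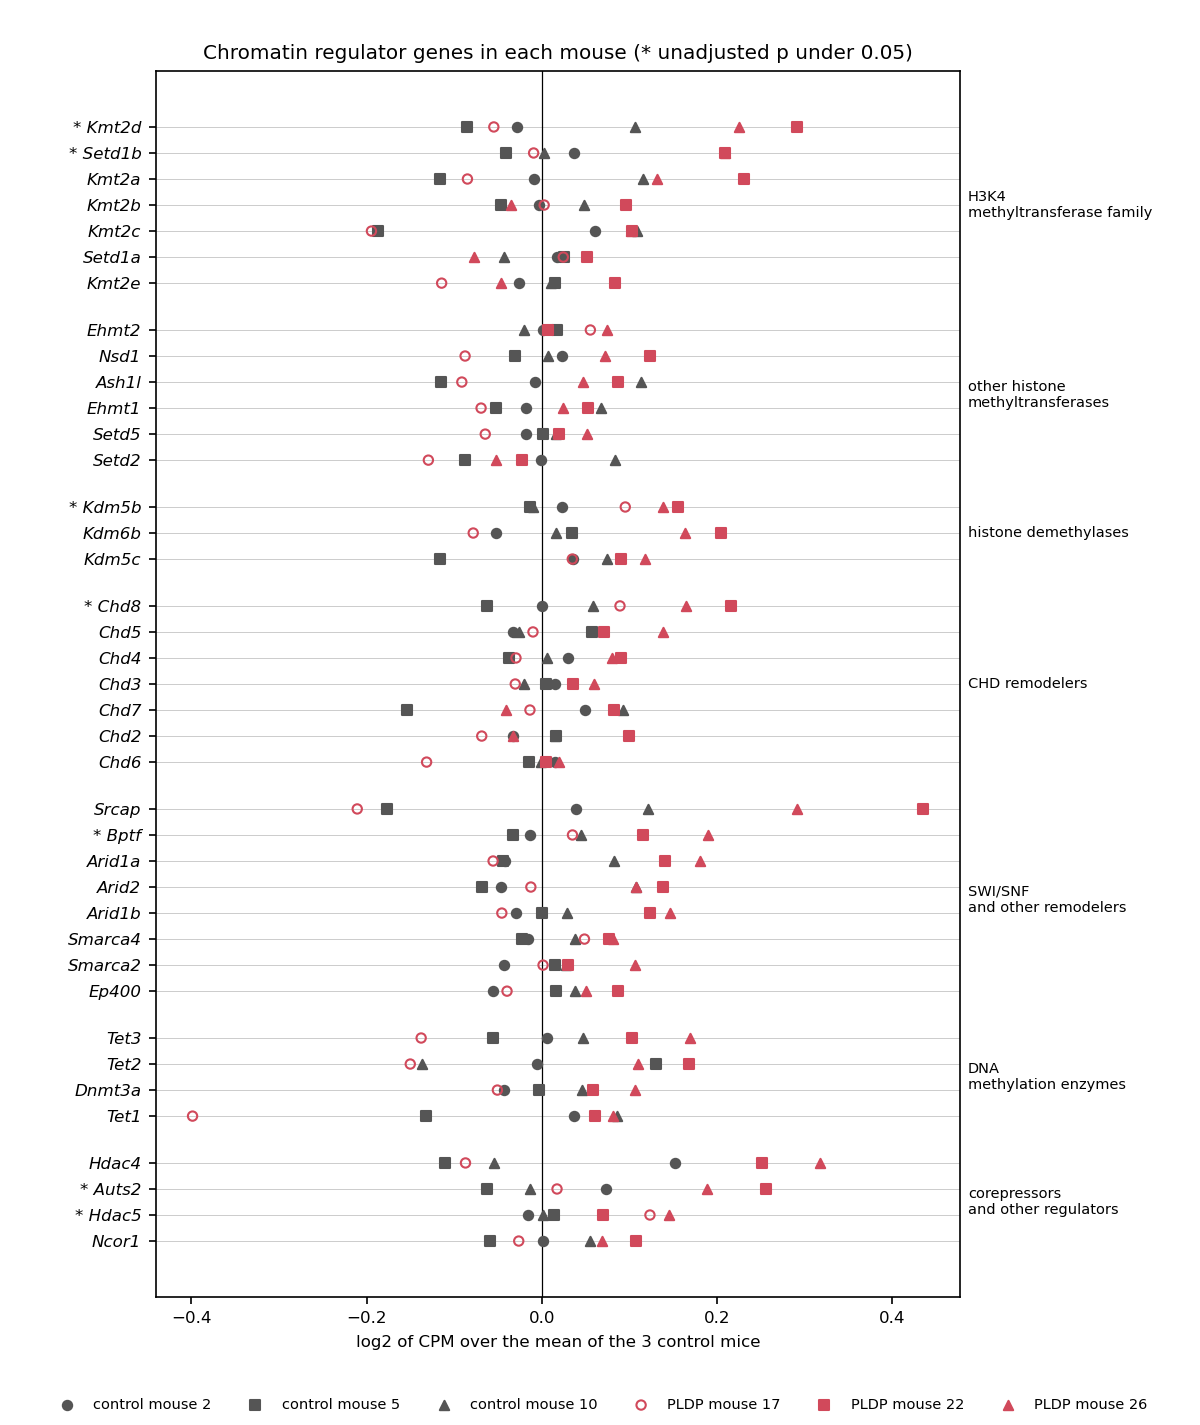
Log2 of the CPM of each gene in each mouse over the mean of the 3 control mice, grouped by class, with grey symbols for control mice, red symbols for PLDP mice, an open circle for PLDP mouse 17 and an asterisk for an unadjusted p under 0.05. The open circles lie to the left of both other PLDP mice for 34 of the 39 genes.

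The genes moved together from mouse to mouse, within diets as well as between them. PLDP mouse 17 had the lowest value of the 3 PLDP mice for 34 of the 39 genes, against 36.8% of all features. It was at or below the highest control mouse for 34 of them, against 69.8% of all features. In the control mice, control mouse 5 was the lowest for 25 of the 39 (33.6% of all features) and control mouse 10 the highest for 23 (34.5% of all features). The median log2 difference of the 39 genes from the control mean was -0.0032, -0.037 and 0.037 in control mice 2, 5 and 10, and -0.045, 0.095 and 0.11 in PLDP mice 17, 22 and 26. The lowest and the highest of these medians were thus both in PLDP mice. For the genes that were not called, these medians were -0.060, 0.088 and 0.079 in the PLDP mice. The summed CPM of the 39 genes ran from 4627 to 4802 in the control mice and was 4629, 5036 and 5031 in the PLDP mice. The coefficient of variation between mice was larger in the PLDP mice than in the control mice for 33 of the 39 genes, against 57.3% of all features, with medians of 5.45% and 3.38%.

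Several properties of the libraries moved with these values, and their part in the result was not tested. Genes with 6 kb or more of merged exons, which include 38 of the 39, took 37.6%, 37.4% and 38.2% of the counts in control mice 2, 5 and 10, and 36.9%, 38.6% and 38.4% in PLDP mice 17, 22 and 26. Both the lowest and the highest share were in PLDP mice, as for the chromatin regulators. Of the 4839 features of that length, 6.26% were called higher and 3.27% lower, and their median log2 fold change was 0.0042. With the correction for exon length and GC content, 4 of the 39 genes were called higher (Kdm5b, Chd8, Bptf and Hdac5), where 5.19% of all features were, and their median log2 fold change was 0.031. Summed levels of 5 oligodendrocyte markers ran from 4666 to 5012 CPM in the control mice and were 4919, 4325 and 4351 CPM in the PLDP mice, so they were low where the chromatin regulators were high. Of these 5 markers 2 were called lower, among them Mbp. The 4 neuron markers summed to 4110 to 4201 CPM in the control mice and to 4038, 4247 and 4251 CPM in the PLDP mice, with 0 of 4 called. The 5 nuclear-retained RNAs summed to 4407 to 4577 CPM in the control mice and 4783 to 5282 CPM in the PLDP mice, with 3 called higher (Malat1, Kcnq1ot1 and Meg3), and were lowest among the PLDP mice in mouse 17. In PLDP mouse 17 the nuclear-retained RNAs were above every control mouse, whereas the median of the chromatin regulators was below every control mouse. The mitochondrial share of counts was 2.56% to 2.80% in the control mice and 2.53% to 2.63% in the PLDP mice.
Choroid plexus markers summed to 735 to 793 CPM in the control mice and 577 to 732 CPM in the PLDP mice, with 2 of 5 called lower, and endothelial markers to 138.3 to 139.4 and 147.2 to 155.1 CPM, with 2 of 5 called higher. Of the other lists, 1 of 5 astrocyte markers (Aqp4) and 1 of 5 microglia markers (P2ry12) were called lower, and 0 were called among blood, meninges, oligodendrocyte precursor, cerebellar granule cell and projection neuron markers.

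**Figure D5:**
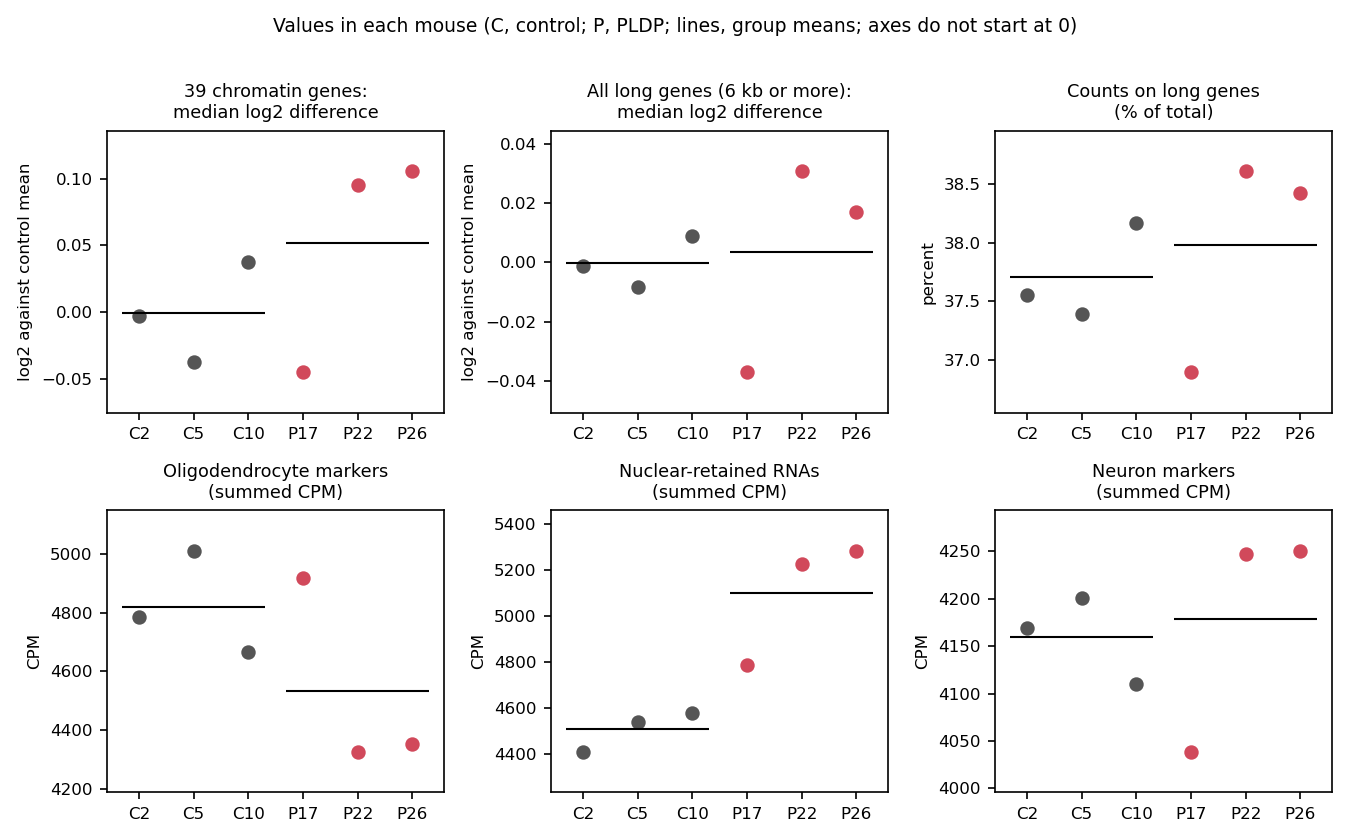
Values in each mouse (C, control; P, PLDP; black lines, group means) of the median log2 difference of the 39 genes and of all genes with 6 kb or more of exons from the control mean, the share of counts on such genes in percent, and the summed CPM of oligodendrocyte markers, nuclear-retained RNAs and neuron markers. PLDP mouse 17 has the lowest share on long genes (36.9%) and the lowest median of the 39 genes (-0.045).

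Ratios between related genes within a mouse do not depend on scaling. They are given for 9 pairs that were chosen after their values were seen, and an exact permutation test of 3 mice against 3 cannot give a p under 0.1. The ratio of Chd8 to Chd7 was 1.45, 1.60 and 1.47 in the control mice and 1.61, 1.65 and 1.73 in the PLDP mice. The ratio of Kmt2d to Kmt2c was 1.32, 1.51 and 1.40 against 1.55, 1.60 and 1.53. In both pairs the PLDP mice lay above the control mice, with mean log2 differences of 0.14 and 0.15. The exact permutation p was 0.1 each, the lowest this test can give, and 0.45 after adjustment over the 9 pairs. No pair could pass it, so it decides nothing about them. Chd8 and Kmt2d were themselves called genes, so these ratios are not separate evidence. The other 7 pairs overlapped between the diets. Among them were Setd1b to Setd1a, with 2.14 to 2.31 in the control mice and 2.19 to 2.73 in the PLDP mice, and Hdac5 to Hdac4, with 5.22 to 6.40 and 5.17 to 6.79. The ratio of Smarca4 to Smarca2 was 0.663 to 0.693 and 0.669 to 0.703, a mean log2 difference of 0.02.

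Partner genes, which are subunits of the same complexes or related chromatin genes, were examined in 8 lists of 158 genes, of which 156 were tested. At an unadjusted p under 0.05, 11 of the 156 were higher (7.05%, against 4.91% of all features) and 1 was lower (0.641%, against 3.69%), and 0 passed after adjustment (edgeR, lowest adjusted p 0.256). Their median log2 fold change was 0.013. With 1 mouse left out, the number called higher ran from 5 (without control mouse 5) to 16 (without PLDP mouse 17). Histone acetyltransferases and readers had 3 of 15 called higher. Crebbp, the CREB-binding acetyltransferase, had 53.0, 54.3 and 55.5 CPM in the control mice and 58.6, 63.2 and 67.1 CPM in the PLDP mice. Its groups were fully apart, and so were those of the acetyltransferase Kat2a, with log2 fold changes of 0.21 for Crebbp and 0.16 for Kat2a. Other enzymes of histone lysine methylation had 3 of 20 called higher, Suv39h1, Kmt5c and Dot1l, with log2 fold changes of 0.18, 0.16 and 0.11.
SWI/SNF partner subunits had 2 of 25 called higher, Bcl11b (log2 fold change 0.16) and the neuronal subunit Dpf1 (0.12). Among 20 NuRD and corepressor subunits, 1 was called higher and 1, Hdac2, lower. Hdac2, a class I deacetylase, had 80.6, 77.7 and 78.6 CPM in the control mice and 75.5, 72.4 and 70.9 CPM in the PLDP mice. Every PLDP mouse was below every control mouse, with a log2 fold change of -0.11. Hdac2 was not called with the correction for exon length and GC content, without control mouse 2 or without PLDP mouse 26. Jarid2 was called higher among 26 Polycomb genes (0.13) and Chd9 among 25 partners of the INO80, TIP60 and ISWI complexes (0.09). Among 13 tested subunits shared by the lysine 4 methyltransferase complexes and 12 partners of DNA methylation, 0 were called (edgeR, unadjusted p under 0.05).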

How the data were processed

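RNA-seq libraries of polyadenylated RNA from whole brains of 6 mice were made by the authors with a stranded kit. The authors deposited whole-number read counts per gene for each mouse, without normalization. The submitters' processing notes name cutadapt 2.9, HISAT2 2.2.0, featureCounts 2.6.0 and DESeq2 1.6.3, and the builds GRCh38 and GRCm38 without a role. Whether counting used strand, and how it treated reads shared between genes, is not given in the sources used here. Symbols, coordinates and exon lengths came from GENCODE M21 (GRCm38) by Ensembl identifier. Of 55034 identifiers 257 were not found in it, and 5320 numbered features have no identifier. Both kinds stayed in the tests.

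The tests ran in edgeR 4.0.16 under R 4.3.3 (low counts removed by filterByExpr at 10 per mouse and 15 in total, then TMM factors, glmQLFit and glmQLFTest with diet as the single term). CPM values use the same factors, and log2 values per mouse an offset of 0.5 CPM. Depth was 18797061 to 23938729 counts per mouse, with 121 or more reads for each of the 39 genes in every mouse. Each library is 1 mouse, and no pair of libraries agreed within sampling noise (mean chi-square per feature at least 2.35). On simulated counts of this comparison over 18336 genes, 89 of 99 tested genes changed 1.5-fold and 94 of 97 changed 2-fold were called at an unadjusted p under 0.05, with 5.24% of unchanged genes. The 0.11 to 0.16 log2 changes reported here are smaller than those simulated.

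The genes, the lists and the tests were chosen with earlier results of these data known. Full values are given for each gene called, and in each class for the gene with the smallest p and the gene with the highest level per length. Further genes named were chosen after their values were seen. Of each partner list up to 3 called genes are named, except that some items are not reported here. Alternatives were no filter, a stricter filter of 10 counts in each mouse, scaling by upper quartiles, by relative log expression or by library size alone, the exact and likelihood ratio tests of edgeR, DESeq2 1.42.0, limma 3.58.1 voom, offsets from splines of exon length and GC content with 5 degrees of freedom, protein-coding genes only, and leaving out each mouse. Tables and plots were made with Python 3.11.15, pandas 2.3.3, scipy 1.17.1 and matplotlib 3.10.9. The behavioral data were not analysed here.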

Additional observations from a re-analysis of the deposited data

How the results depend on the processing

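No paired analysis was possible because the control and PLDP mice share no mouse number. The count of 7 chromatin regulators called higher was 4 with offsets for exon length and GC content, where 28 of the 39 genes had log2 fold changes above 0 in place of 35, and it was within 1.5 times of 7 under the 10 other settings that kept all mice (5 to 9). Leaving out 1 mouse gave 2 to 19 genes called higher, 0 called lower in each case, 0 to 5 passing an adjusted p of 0.05, a median log2 fold change from 0.025 to 0.099, and 25 (without PLDP mouse 22) to 37 (without PLDP mouse 17) genes above 0. The 11 partner genes called higher became 5 to 16 and the 1 called lower became 0 to 4 when 1 mouse was left out, and 0 were called lower with the offsets for exon length and GC content. The log2 fold change of Kmt2e (-0.02) ran from -0.082 to 0.022 when 1 mouse was left out and was above 0 without PLDP mouse 17. In all, 14 of the 39 genes changed sign when some 1 mouse was left out. The causes were not tested. Detection was not simulated for changes as small as those of the called genes. Genes with few reads, such as Srcap with 121 in PLDP mouse 17, also carry counting error.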
